A study of Mus musculus with 3 samples.

Results

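The genes described here encode ankyrin repeat, LIM and Xin-repeat proteins that sit at the titin filament, the Z-disc and the myotendinous junction of striated muscle and are linked to stretch: Ankrd1, Ankrd2, Ankrd23, Fhl1, Fhl2, Fhl3, Xirp1, Xirp2, Nrap and Ldb3. They were chosen by gene symbol, as all probe sets whose only symbol in the platform annotation was one of the 10. This gave 13 probe sets of 9 genes, out of 45101 probe sets on the array and 18193 genes named by a probe set of their own. Xirp2 had no probe set under its symbol in the annotation used and was not analysed here.

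The samples were gastrocnemius muscle, a calf muscle, from Akt_Cre transgenic mice of the C57BL/CD1 strain. Every group, oil included, carried a fusion of the kinase Akt with an oestrogen-binding domain, made in skeletal muscle only per the labels, where tamoxifen is said to stabilise the fusion. The promoter that drives the fusion and the age of the mice are not given in the sources used here. One group had received oil for 24 h, another tamoxifen for 24 h and the last tamoxifen for 48 h, and each was measured on 1 Affymetrix Mouse 430 2.0 array of RNA pooled from 3 to 4 mice. The comparisons ask how gene expression differed after tamoxifen, and neither a 48 h oil array nor tamoxifen-treated mice lacking the fusion were analysed here, so time, tamoxifen and the fusion cannot be told apart at 48 h and tamoxifen and the fusion cannot be told apart at 24 h.

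Ankrd1, Ankrd2 and Ankrd23 form the family of muscle ankyrin repeat proteins, which bind the spring region of titin in the I-band, are found in the nucleus as well and are known to be induced by stretch or injury of muscle. The FHL proteins are built from LIM domains, zinc-binding folds that hold other proteins, and act both at the sarcomere and as partners of transcription factors. Xirp1 (Xin) and Xirp2 bind actin, Nrap anchors thin filaments where myofibrils end at the membrane, and Ldb3 (cypher, also called ZASP) ties alpha-actinin into the Z-disc through its PDZ domain.

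Values are intensities on a linear scale, after the arrays were brought to the same median over brighter probe sets, with a floor at 4.05, and ratios are given as log2 ratios or folds of these scaled intensities. A gene is called higher or lower where its ratio is 2-fold or more. With 1 array per group no value has a replicate error and no test could be made, so a call describes 2 arrays of pooled RNA and not the conditions. As a technical yardstick, the log2 ratios of the 2 brightest kept probe sets of one gene were compared over 5001 genes. They differed by a median of 0.32 at 24 h against oil, 0.29 at 48 h against oil and 0.28 between the tamoxifen arrays. The 90th percentiles of the difference were 0.99, 0.86 and 0.89 in the same order. Both probe sets are read on the same arrays, so this does not measure variation between pools of mice. The filter on dim signals required an average percentile rank of intensity of at least 50 over the arrays, and all 13 member probe sets passed it. Fhl3 passed because of the oil and 24 h arrays: its percentile ranks were 72.4 on the oil array, 76.2 after 24 h of tamoxifen and 41.4 after 48 h, so its reading at 48 h alone lay under that mark. Intensities of different probe sets are not compared with each other, because each probe set binds its target with its own strength.

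**Figure D1:**
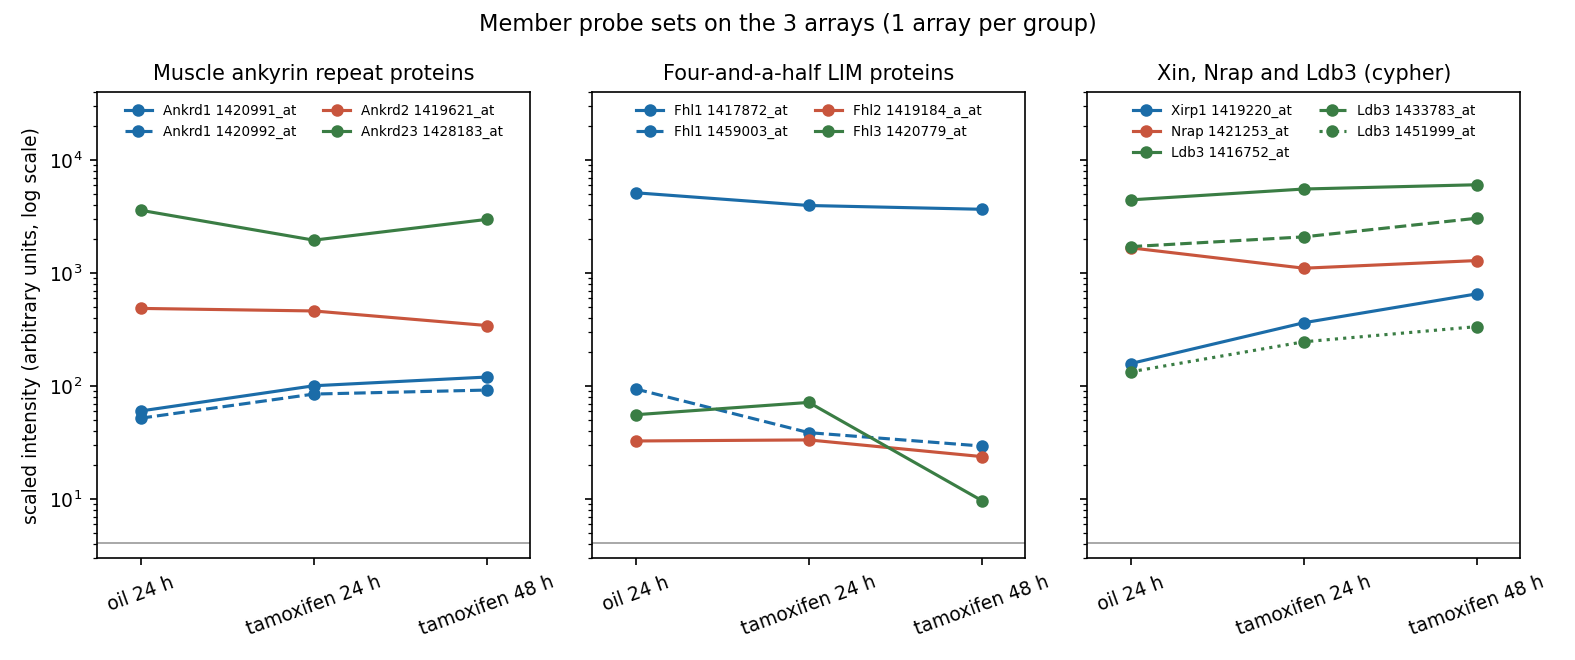
Scaled intensity (log axis, arbitrary units) of each of the 13 member probe sets on the oil 24 h, tamoxifen 24 h and tamoxifen 48 h arrays, 1 line per probe set and 1 point per array, with the floor of 4.05 as a grey line. Xirp1 goes from 158.1 to 655 and Fhl3 is at 9.66 on the 48 h array, while the other lines span at most 3.20-fold.

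Of the 9 genes, Xirp1 and Fhl3 stood furthest from oil at 48 h, in opposite directions, and at 24 h Xirp1 stood furthest, followed by Ankrd23. At 24 h, 1 of the 9 genes, Xirp1, was at least 2-fold higher and none was lower, against 4.83% of 11092 genes called either way, 2.35% higher and 2.48% lower. At 48 h against oil, 1 was higher (Xirp1) and 1 lower (Fhl3), against 6.44% called either way, 3.72% higher and 2.71% lower. Between 48 h and 24 h of tamoxifen, 1 was lower (Fhl3) and none higher, against 3.22% called either way, 1.80% higher and 1.42% lower. The first 2 comparisons share the oil array. The median log2 ratio of the 9 genes was 0.03 at 24 h (all genes 0.04), -0.37 at 48 h (all genes 0.01) and 0.13 between the tamoxifen arrays (all genes -0.02). With the deposited values unscaled the median between the tamoxifen arrays was -0.03, where the median of all genes was -0.18. Members read in both directions: 5 genes had ratios above 0 and 4 below at 24 h, and 3 above and 6 below at 48 h.

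By probe set, 1 of the 13 was higher (Xirp1) and 1 lower (the dimmer of Fhl1) at 24 h, against 6.64% of 19362 kept probe sets called either way (2.45% higher, 4.19% lower), and 2 were higher (Xirp1 and the dimmest of Ldb3) and 2 lower (Fhl3 and the dimmer of Fhl1) at 48 h against oil, against 7.01% (3.91% higher, 3.10% lower). Between the tamoxifen arrays 1 was lower and none higher, against 4.79% (3.21% higher, 1.58% lower). Both tamoxifen arrays read above oil in 6 probe sets, those of Ankrd1, Xirp1 and Ldb3, and below oil in 5, those of Ankrd2, Ankrd23, Fhl1 and Nrap. The 6 that read above did so in the order oil, 24 h, 48 h. Unscaled, Ankrd2 at 24 h turned to a log2 ratio of 0.02 above oil, and the second step of that order turned for 1 probe set of Ankrd1 (to -0.04) and 1 of Ldb3 (to -0.03).

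Ankrd1, also called CARP, is a cardiac and stress-induced member of its family that is scarce in resting limb muscle. Its brighter probe set read 60.2 with oil, 100.6 after 24 h of tamoxifen and 120.2 after 48 h. Its other probe set read 52.0, 85.0 and 92.2 in the same order. Oil was the lowest array in both, and both tamoxifen arrays lay near each other. The log2 ratios to oil were 0.74 and 0.999 on the brighter probe set, the latter just short of 2-fold, and 0.71 and 0.83 on the other. After quantile normalization the brighter one reached 1.01 at 48 h, past 2-fold. The annotation gives both probe sets the same source transcript, so they are not independent readings.

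Ankrd2, which in limb muscle is more abundant in slow fibres, read 486.6 on the oil array, 462.0 after 24 h of tamoxifen and 343.2 after 48 h. Oil and 24 h lay close together and 48 h was the lowest array, at a log2 ratio of -0.50 to oil and -0.43 to 24 h, within 2-fold. The summed intensity of 4 slow-fibre markers (Myh7, Tnnt1, Tnni1 and Myl2) was 5246 on the oil array, 5713 after 24 h of tamoxifen and 4451 after 48 h, also lowest at 48 h, and their part in the Ankrd2 reading was not tested. In whole muscle, fewer cells or fibres of a type and less RNA per cell cannot be told apart.

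Ankrd23, or DARP, read 3596 on the oil array, 1954 after 24 h of tamoxifen and 2986 after 48 h. Here the 24 h array was the low one and 48 h lay nearer to oil. The log2 ratio was -0.88 at 24 h (1.84-fold lower), -0.27 at 48 h, and 0.61 from 24 h to 48 h. At 24 h it was the 388th lowest of 11092 genes. The 3 ankyrin repeat genes therefore read in different directions at 24 h, with Ankrd1 above oil, Ankrd23 below it and Ankrd2 at a log2 ratio of -0.07.

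Fhl1, the LIM protein of its family that is abundant in skeletal muscle and mutated in several human myopathies, read lower with tamoxifen on both its probe sets. The brighter probe set read 5132 on the oil array, 3960 after 24 h of tamoxifen and 3666 after 48 h, at log2 ratios of -0.37 and -0.49. The dimmer one read 94.3, 38.7 and 29.5, at log2 ratios of -1.28 and -1.68, which is 2.44-fold and 3.20-fold lower. The order of the arrays was the same in both, and the dimmer one differed more from oil at both times. The gene is read on its brighter probe set and so is not called. With the median of both probe sets the log2 ratio at 48 h was -1.08, past 2-fold. Which transcripts of Fhl1 each probe set detects was not examined.

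Fhl2, better known from the heart, read 32.7 on the oil array, 33.4 after 24 h of tamoxifen and 23.8 after 48 h. The first pair of arrays was level and 48 h was lower by a log2 ratio of -0.46 to oil, within 2-fold.

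Fhl3, a skeletal muscle member that binds actin and the myogenic factor MyoD, read 55.8 on the oil array, 71.7 after 24 h of tamoxifen and 9.66 after 48 h. The 48 h array stood far below the other two. Its log2 ratio was 0.36 at 24 h, -2.53 at 48 h against oil (5.77-fold lower) and -2.89 at 48 h against 24 h (7.41-fold lower), the 7th lowest and the 3rd lowest of 11092 genes. When the floor was moved up to the 50th percentile, 48 h against oil was at -1.99, and with a pseudocount of 16 in place of the floor at -1.48. For 48 h against 24 h these settings gave -2.35 and -1.77, so the size of both differences rests on the dim 48 h reading. Only 1 probe set measures Fhl3, and no other probe set of the gene could be set beside it. Calls were more frequent among dim genes such as this one: at 48 h against oil 9.56% of 4332 genes with a mean rank between the 50th and 75th percentiles were called, against 4.44% of 6760 brighter genes.

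Xirp1, whose protein Xin binds actin at the myotendinous junction and gathers at sites of fibre damage, read 158.1 on the oil array, 363.4 after 24 h of tamoxifen and 655 after 48 h. Each step was upward, with 1 array per group. The second step, a log2 ratio of 0.85, was under the 90th percentile of 0.89 between probe sets of one gene. The log2 ratios were 1.20 at 24 h (2.30-fold), 2.05 at 48 h (4.15-fold) and 0.85 from 24 h to 48 h (1.80-fold). It was the 153rd highest gene at 24 h and the 48th highest at 48 h of 11092. It is measured by 1 probe set, and 3 of the alternative settings could change its value. Its 48 h log2 ratio was 1.99 unscaled, 2.00 after quantile normalization and 1.95 with the pseudocount, and its 24 h log2 ratio was 1.30, 1.13 and 1.12 in the same order.

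Nrap, which in skeletal muscle is concentrated at the myotendinous junction, read 1673 on the oil array, 1104 after 24 h of tamoxifen and 1290 after 48 h. Both tamoxifen arrays lay below oil, at log2 ratios of -0.60 and -0.37, within 2-fold. The summed intensity of the tendon markers Tnmd, Scx and Fmod was 2160 on the oil array, 1490 after 24 h of tamoxifen and 1229 after 48 h. Fmod and Tnmd carried this sum, while Scx read 18.5, 21.2 and 14.9 in the same order. Their part in the readings of Nrap and Xirp1 was not tested, and Xirp1 went the other way from the sum.

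Ldb3 was read by 3 probe sets, all in the same order. The brightest read 4441 on the oil array, 5541 after 24 h of tamoxifen and 6045 after 48 h, with log2 ratios of 0.32 and 0.44. The second read 1713, 2090 and 3057, with log2 ratios of 0.29 and 0.84. The dimmest read 133.6, 246.5 and 336.0, with log2 ratios of 0.88 and 1.33, which is 2.51-fold at 48 h. Oil was the lowest array in each, and the size of the difference grew from the brightest probe set to the dimmest at 48 h. Ldb3 is spliced into several isoforms, and which of them each probe set detects was not examined.

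**Figure D2:**
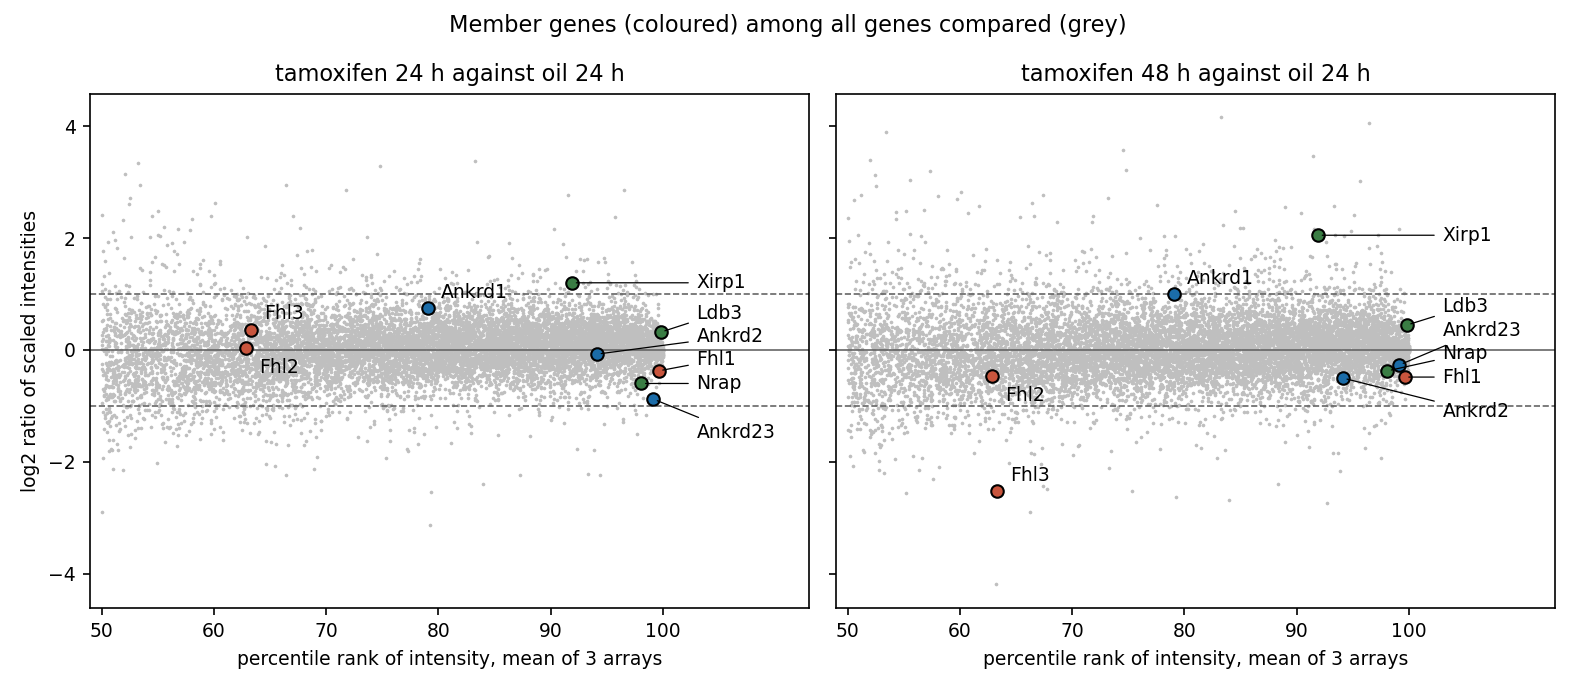
Log2 ratio of scaled intensity (vertical) against the percentile rank of intensity averaged over the 3 arrays (horizontal) for 11092 genes in grey and the 9 member genes in colour, blue for ankyrin repeat, red for FHL and green for Xirp1, Nrap and Ldb3, with dashed lines at 2-fold. Xirp1 lies above the upper line in both panels, Fhl3 lies far below the lower line at 48 h only, and Ankrd1 touches the upper line at 48 h.

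Promoter windows are shown for 4 members, so that genes that read on opposite sides of oil can be set side by side: Ankrd1 and Ldb3, which read above oil on both tamoxifen arrays in all their probe sets, Fhl1, which read below oil on both in all its probe sets, and Fhl3, which was low at 48 h. Each is the 250 bases before the RefSeq start on the gene's strand, 5′ to 3′, in GRCm38.p6: Ankrd1 at chr19:36119845-36120094 (minus strand), Ldb3 at chr14:34588682-34588931 (minus strand), Fhl1 at chrX:56779433-56779682 (plus strand) and Fhl3 at chr4:124700449-124700698 (plus strand). For Ldb3 and Fhl1, which have more than 1 listed start, the first listed window is shown. Capitals mark matches to the MCAT element bound by TEAD factors (CATTCC on either strand), the CArG box bound by SRF, the TATA box (TATAAA on either strand), the MEF2 site and the FoxO site (TGTTTAC on either strand).
Ankrd1: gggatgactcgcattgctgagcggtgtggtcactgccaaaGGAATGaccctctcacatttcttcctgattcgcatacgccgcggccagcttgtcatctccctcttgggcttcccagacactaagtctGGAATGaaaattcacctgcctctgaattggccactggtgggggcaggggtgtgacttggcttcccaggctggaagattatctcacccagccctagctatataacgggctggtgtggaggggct
Ldb3: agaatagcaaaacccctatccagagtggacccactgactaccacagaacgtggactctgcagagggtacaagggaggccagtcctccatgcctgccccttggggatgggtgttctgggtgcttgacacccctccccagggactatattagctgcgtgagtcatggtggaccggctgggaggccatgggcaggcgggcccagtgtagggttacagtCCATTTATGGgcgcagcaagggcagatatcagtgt
Fhl1: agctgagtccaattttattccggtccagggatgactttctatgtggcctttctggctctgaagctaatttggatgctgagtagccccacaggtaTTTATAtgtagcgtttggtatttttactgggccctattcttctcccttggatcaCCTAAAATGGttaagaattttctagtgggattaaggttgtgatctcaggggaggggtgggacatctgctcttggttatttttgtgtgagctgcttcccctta
Fhl3: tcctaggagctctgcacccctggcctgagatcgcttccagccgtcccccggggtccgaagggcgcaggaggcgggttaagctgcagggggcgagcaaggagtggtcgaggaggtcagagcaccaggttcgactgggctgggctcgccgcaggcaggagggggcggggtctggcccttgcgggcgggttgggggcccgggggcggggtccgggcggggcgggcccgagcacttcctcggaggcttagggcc

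In the Ankrd1 window the MCAT letters stood at 2 places, beginning 210 and 123 bases before the start. The Ldb3 window held a CArG box beginning 35 bases before the start, and the Fhl1 window held a CArG box at 102 bases and TATA letters in reverse at 156 bases. In the Fhl3 window none of these letters was found. RefSeq windows were listed for 9 of the 10 genes, 13 windows in all, and Xirp1 had none in the table used. MCAT letters were in 2 of the 13 windows, those of Ankrd1 and the second of Ankrd23, against 12.6% of 32851 windows of this length. CArG boxes were in 5 of the 13, from Fhl1, Fhl2 and Ldb3, against 1.47% of all windows, but both windows of Ldb3 overlap and share 1 match. MEF2 sites were in 2 (Fhl2 and Xirp2, against 2.92%), TATA letters in 3 (against 12.4%), the FoxO letters in 1 (Ankrd23, against 3.17%) and the E-box CANNTG, not capitalised above, in 9 (against 66.2%). In the first window of Fhl2 the TATA letters lie inside the MEF2 match. A match is a description of letters, and binding was not measured.

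Relatives and partners of these genes were described from lists chosen with earlier results known. Of 22 Z-disc and titin partners, 21 were compared and 1 was higher at 24 h: Flnc, filamin C, an actin crosslinker at the Z-disc, at 438 on the oil array, 967 after 24 h of tamoxifen and 741 after 48 h (2.21-fold at 24 h, within 2-fold at 48 h). The other kept probe set of Flnc was at log2 ratios of 0.79 and 1.11, so it passed 2-fold at 48 h and not at 24 h. From 24 h to 48 h it was at 0.32, against -0.38 on the probe set shown. With each gene read on its brightest kept probe set, none of this list was called at 48 h against oil. Less bright kept probe sets of Synpo2l reached log2 ratios of 1.73 at 24 h and 1.90 at 48 h, and those of Palld reached 1.10 at 48 h. All kept probe sets of both genes lay above oil at 48 h. The medians of the list were 0.22 and 0.10. Ttn, titin itself, read 4860, 3721 and 4399, and its 6 kept probe sets ranged in log2 from -2.22 to 0.10 at 24 h. Tcap (telethonin), which caps titin at the Z-disc, read 6349, 4196 and 3439, with log2 ratios of -0.60 and -0.88.

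Of 25 other LIM-domain proteins of muscle, 22 were compared. On the brightest kept probe set none was 2-fold different in any of the 3 comparisons, with medians of 0.08 at 24 h and -0.02 at 48 h. Over all kept probe sets, log2 ratios at 24 h ranged from -1.27 to 0.27 for Lasp1 (8 probe sets) and from -1.02 to 0.11 for Lims1 (3). Csrp3, the muscle LIM protein of the Z-disc, read 866 on the oil array, 751 after 24 h of tamoxifen and 605 after 48 h. Of 14 costamere and myotendinous junction genes, all were compared. On the brightest kept probe set 1 was called: Cdh2, N-cadherin, at a log2 ratio of -1.17 at 24 h, with its other kept probe set at 0.26. Less bright kept probe sets of other genes also passed 2-fold. At 48 h against oil those of Tln1 reached 1.11 and those of Vcl 1.001, with all kept probe sets of both above oil. At 24 h those of Dmd ranged from -1.82 to 0.08. These genes were named after their values were seen. This list's medians were 0.34 at 24 h and at 48 h, against 0.04 and 0.01 for all genes.

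Ankrd1 is a known target of YAP with TEAD factors. Of 22 genes of that pathway, 20 were compared. On the brightest kept probe set none was higher and 1 was lower at 24 h, and none was called at 48 h against oil. The lower one was Vgll4, a TEAD cofactor that opposes YAP, at 45.5 on the oil array, 14.8 after 24 h of tamoxifen and 52.3 after 48 h. It was 3.54-fold higher at 48 h than at 24 h, on 1 kept probe set and through the low reading of the 24 h array. Ccn2 (connective tissue growth factor), another YAP target with 1 kept probe set, read 271, 421 and 181. It was 2.32-fold lower at 48 h than at 24 h. Ccn1, also a YAP target, read 190.1, 160.1 and 156.5 on its brightest kept probe set, with log2 ratios of -0.25 and -0.28. All 4 of its kept probe sets lay below oil on both tamoxifen arrays. The lowest log2 ratio among them was -0.67 after 24 h of tamoxifen and -1.32 after 48 h, the latter past 2-fold. Yap1 read 243, 257 and 235, with its other kept probe set at log2 ratios of 0.82 and 1.14. Tead1 read 525, 806 and 818. Over all kept probe sets, log2 ratios at 24 h ranged from -0.28 to 1.27 for Amot and from -1.40 to 0.27 for Wwtr1. Of the targets Ankrd1, Ccn1 and Ccn2, Ankrd1 and Ccn2 read above oil at 24 h and Ccn1 below it. At 48 h Ankrd1 read above oil, and Ccn1 and Ccn2 read below it. The part of YAP in these readings was not tested.

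SRF and its MRTF cofactors drive actin and other cytoskeletal genes. Of 15 genes of this list, 14 were compared, 2 were higher at 24 h and 3 at 48 h against oil, and none was lower. Mrtfa read 85.0 on the oil array, 214.9 after 24 h of tamoxifen and 298 after 48 h (2.53-fold and 3.51-fold). Cardiac actin, Actc1, was the other gene called at 24 h, just past 2-fold at a log2 ratio of 1.01. After quantile normalization it was at 0.92, within 2-fold. Actc1 and the immediate early factor Egr1 were also called at 48 h, at log2 ratios of 2.17 and 1.77. Mrtfa, Actc1 and Egr1 each had 1 kept probe set. Srf read 129.3, 198.1 and 187.9, with log2 ratios of 0.62 and 0.54, and its other kept probe set was at 0.47 and 1.11. Other targets read below oil without reaching 2-fold, named after their values were seen: the smooth muscle actin Acta2 at log2 ratios of -0.98 and -0.80, Tagln at -0.33 and -0.78 and Cnn1 at -0.60 and -0.54. Acta2 and Cnn1 are also 2 of the 3 smooth muscle markers, whose sum was 1733 with oil, then 899 and 984 with tamoxifen, and the part of smooth muscle in these readings was not tested. The medians of the list were 0.10 and 0.23, with 8 and 10 of the 14 genes above 0.

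**Figure D3:**
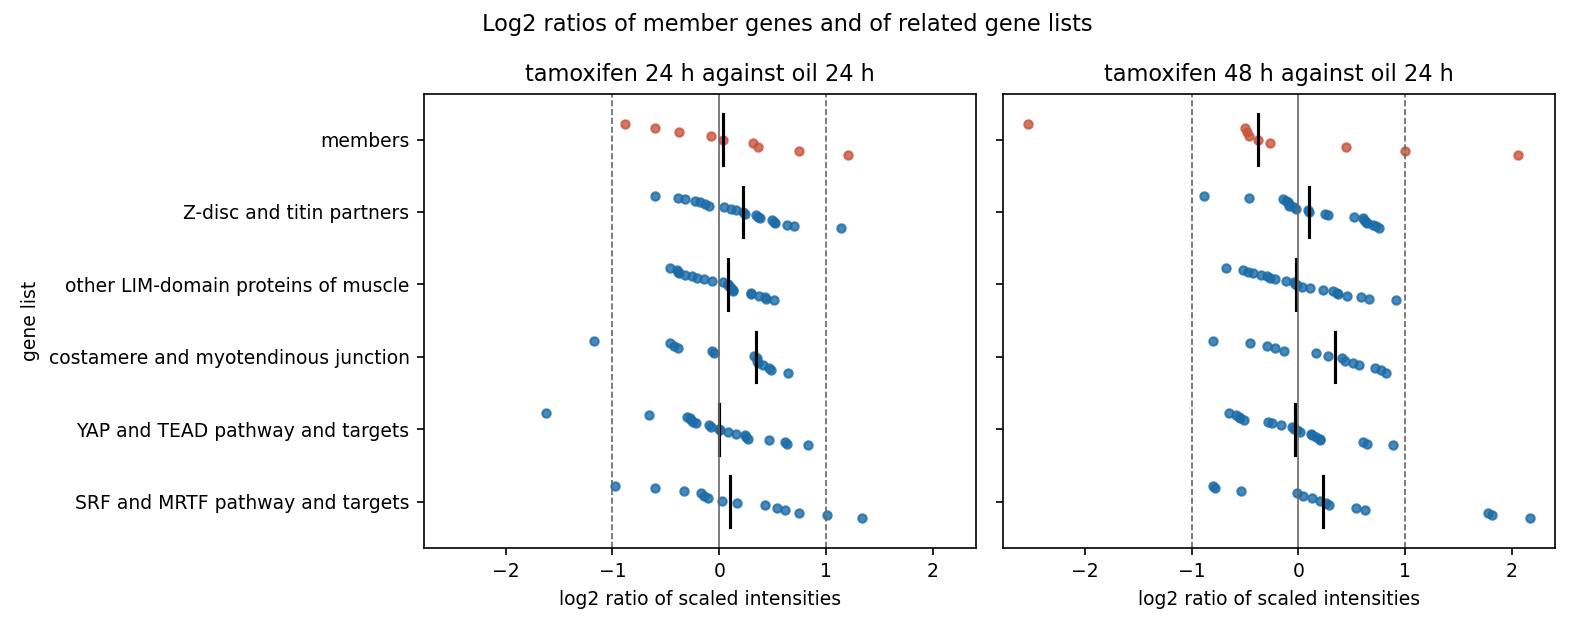
Log2 ratios of scaled intensity (horizontal) for the 9 member genes in red and for the compared genes of each related list in blue, 1 point per gene, with a black bar at each list's median and dashed lines at 2-fold. At 48 h member genes reach from -2.53 to 2.05 and the SRF list passes the upper dashed line, while the other lists stay inside the lines. At 24 h the member Xirp1, Flnc of the Z-disc list and Mrtfa and Actc1 of the SRF list lie past the upper line. Cdh2 of the costamere list and Vgll4 of the YAP list lie past the lower line at 24 h.

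The arrays carried the markers of the labelled tissue. The summed intensity of the skeletal muscle markers Acta1, Ckm, Tnnt3, Myh4 and Mb was 46736 on the oil array, 45027 after 24 h of tamoxifen and 46623 after 48 h, and none of 4 heart markers passed the filter. Other cell types differed between arrays, each with all its measured members kept except adipocyte markers (1 of 2). Neutrophil markers summed to 146.1, 94.2 and 41.1, and satellite cell markers to 112.4, 172.0 and 203.3, where Cdh15 alone carried the increase. Endothelial markers summed to 366, 476 and 330, fibroblast markers to 6749, 5936 and 5936, macrophage markers to 834, 789 and 766, and adipocyte markers to 566, 683 and 470, and the 1 measured Schwann cell marker read 43.0, 32.1 and 30.7. Within these sums single markers differed: Dcn carried the fibroblast sum while Col1a1 read 536, 943 and 1211, and Csf1r carried most of the macrophage sum while Cd68 read 71.0, 87.7 and 106.0. Their part in the members' readings was not tested. Of all genes called either way, those called higher made up 48.7% at 24 h, against 63.8% unscaled and 60.0% after quantile normalization. In the same order of settings they made up 57.8%, 49.2% and 58.1% at 48 h against oil. Between the tamoxifen arrays they made up 56.0%, 29.3% and 43.0%.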

How the data were processed

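Gastrocnemius RNA was measured on 3 Affymetrix arrays, 1 per group. The authors deposited 1 intensity per probe set and array on a linear scale; the summary, background and scaling steps are not given in the sources used here. Pooling of mice is per the labels. All 3 columns were used.

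From the 45101 probe sets, 64 controls of the manufacturer were removed. Probe sets were named from the platform annotation, with symbols updated through Entrez identifiers to the RefSeq table of GRCm38.p6: 34945 had 1 gene, 932 several and 9160 none listed, and none with several included a member. Probe sets of mean percentile rank 0.5 or more were kept (21804, of which 19362 had 1 gene, for 11092 genes). These were used to bring the arrays to a common median (factors 1.01, 0.944 and 1.05 for oil, 24 h and 48 h), a floor was set at the 25th percentile of all scaled values, and log2 ratios were taken. A gene was read on whichever kept probe set ranked highest on average, and every member probe set is given. Precision is limited by the number of arrays, no test was possible and no p-value is given.

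The members and gene lists were chosen with earlier results of these data known. Genes named from the lists by rule were those past 2-fold whose kept probe sets all had one sign, up to 4 per list and comparison. The genes Csrp3, Tcap, Ttn, Ccn1, Ccn2, Srf, Yap1, Tead1 and Tead4 were fixed, and Tead4 had no kept probe set. Any other list gene was named after its values were seen. Genes were not ranked by likeness to a member, since 3 arrays cannot rank it. Other scalings, filters, floors, probe set rules and a 1.5-fold rule were tried. Promoter windows were taken from RefSeq. The calculation was tested on simulated data. Python 3.11.15 with pandas 2.3.3 was used.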

Additional observations from a re-analysis of the deposited data

Results flagged for a closer look

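Fhl3 read on opposite sides of oil at the 2 times, with a log2 ratio of 0.36 after 24 h of tamoxifen and -2.53 after 48 h. The 24 h ratio was within 2-fold and close to the median difference of 0.32 between probe sets of one gene. The 48 h ratio rests on a dim reading of 9.66, at a percentile rank of 41.4. Whether the 2 times differ was not tested, since each time has 1 array and both ratios share the oil array.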

How the results depend on the processing

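With 1 array per group no array could be left out, and no paired analysis was possible because each group has 1 array. Of 237 recomputed log2 ratios of single member genes, 146 equalled the reported value, mostly by construction, since rank filters do not alter a ratio and members lie above most floors. Of the 91 that differed, 87 kept their direction and their side of 2-fold, 2 changed sign without being called (Ankrd2 at 24 h and Ldb3 between the tamoxifen arrays, both unscaled) and 2 passed 2-fold (Ankrd1 and Fhl1 at 48 h). At a rank of 0.75 or more, Fhl2 and Fhl3 were not measured, so 7 genes remained, 1 member was called at 48 h against oil and 0 between the tamoxifen arrays. The members’ median was then -0.075 at 24 h and -0.27 at 48 h; with quantile normalization it was 0.15 at 24 h, and unscaled it was -0.030 between the tamoxifen arrays. With a 1.5-fold rule, 4 members were called at 24 h (18.6% of all genes), 3 at 48 h (22.4%) and 3 between the tamoxifen arrays (12.8%). The count of all genes called was 536 at 24 h, 714 at 48 h and 357 between the tamoxifen arrays. In the same order it was 1737, 1914 and 1443 at a rank of 0.25 or more, 182, 300 and 84 at 0.75 or more, 1931, 2139 and 1589 with no filter, 198, 323 and 85 with a pseudocount of 16, and 2061, 2489 and 1415 with the 1.5-fold rule. These counts differ by construction, since each setting changes how many dim genes are tested, how low values weigh or the rule itself. Scaling factors were kept when the filter changed.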

Other observations

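Fhl4 and Fhl5, relatives of the FHL genes, were below the filter on all their probe sets. The 2 probe sets of Fhl4 read 8.41 and 3.28 on the oil array, 0.648 and 4.94 at 24 h and 7.10 and 4.68 at 48 h. Fhl5 read 11.4, 4.33 and 1.34. Readings this near the floor of 4.05 were not compared.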
